A study of Homo sapiens with 9 samples.

Results

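Streptavidin pulldown of chromatin from K562 cells that carry a biotin-tagged zfp281 protein was compared with the same pulldown from cells that carry only the biotin ligase. The libraries were chosen by their labels alone, as the 2 bio-zfp281 and the 2 BirA ChIP libraries, which makes 4 of the 9 samples of the series. The others are 2 bio-zfp148 ChIP libraries, used here only as a side comparison, and 3 inputs, which entered through the authors' peak calls. The deposited lists give where peaks were called and how many sequenced tags each held. The question is which places recovered from bio-zfp281 cells were also recovered where there was no tagged protein.

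K562 is an established human erythroleukaemia line. All 4 libraries came from K562 cells that stably expressed BirA, a biotin ligase from bacteria, and that had been given hemin for 48 h to start erythroid maturation (50 mM as labelled). The bio-zfp281 cells were in addition stably transfected with zfp281 bearing an amino-terminal acceptor motif of 23 amino acids for BirA, and the BirA cells were their parental line with no tagged protein. The bio-zfp281 cells were selected clones with recombinant protein near the level of the endogenous one; how many clones were used is not given in the sources used here, and the endogenous, untagged protein is not described as removed. Cells were fixed in 1% formaldehyde for 10 min and the chromatin was sheared by sonication before capture on streptavidin beads. Because nothing states that replicates came from separate cultures, the spread between them may be technical.

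Zfp281 (ZNF281, also ZBP-99) is a zinc finger transcription factor that binds G-rich DNA and is best known from work on stem cells. BirA joins biotin to its acceptor motif, and streptavidin holds biotin so tightly that beads can be washed harshly. Cells also hold proteins that are biotinylated naturally, mainly carboxylases, and beads and sheared chromatin bring down some DNA of their own, so ligase-only cells show what is recovered without the tagged protein.

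BirA replicate 1 stood apart from the other 3 libraries. It held 15956688 filtered tags (the tags left after the authors' limit on duplicates), against 1570283 in bio-zfp281 replicate 1, 906911 in bio-zfp281 replicate 2 and 1080363 in BirA replicate 2. Up to 2 tags per position were kept in it and 1 in the others, and it kept 34.5% of its tags against 16.7%, 11.7% and 10.5%. Its 66002 peaks needed at least 12 tags, while the 28813 and 9895 peaks of bio-zfp281 replicates 1 and 2 and the 7819 of BirA replicate 2 needed 5. None of its peaks had a false discovery rate of 5% or less, and the lowest in the list was 31.6%. In the other libraries 96.8%, 98.7% and 94.4% of peaks were at or below 5%. The main comparisons are therefore given with and without it, and which of these differences sets it apart was not tested.

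As a share of filtered tags, more of the recovered DNA lay in peaks in bio-zfp281 cells than in BirA cells. Peaks held 21.5% and 10.8% of the filtered tags of the bio-zfp281 replicates and 8.79% and 5.39% of those of the BirA replicates, so the groups did not overlap. For every 1000000 filtered tags, 18349 and 10911 peaks were called in bio-zfp281 and 4136 and 7237 in BirA, again without overlap. With 2 libraries against 2, an exact permutation test cannot go below a two-sided p of 0.333, which both values reached.

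In the single libraries, bio-zfp281 peaks were also slightly longer. The median length was 549 and 519 bp in the tagged cells, against 515 and 487 bp in the ligase-only cells (difference of means 33.0 bp, exact two-sided permutation p = 0.333). The authors' pooled lists had the opposite order, with a shorter median in bio-zfp281 than in BirA, and the reason was not tested. Peaks over 1 kb made up 6.81% and 3.01% of the single bio-zfp281 lists and 7.08% and 1.25% of the single BirA lists, so here the groups overlapped. The summit, the point of highest tag pile-up, lay a median of 73.0 and 62.5 bp from the peak's middle in bio-zfp281 and 68.5 and 63 bp in BirA, which does not separate the groups. The authors' median fold enrichment over local background was lower in bio-zfp281 (3.77 and 3.11) than in BirA (8.44 and 3.85), although 3.77 and 3.85 are close together. Each library's fold depends on its own depth and input.

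BirA replicate 2 shared more of its peaks with the bio-zfp281 libraries than with the other BirA library. Of its 7819 peaks, 53.9% (95% interval 52.8 to 55.0%) overlapped a bio-zfp281 replicate 1 peak by at least 1 bp, 31.6% (30.5 to 32.6%) a bio-zfp281 replicate 2 peak and 24.1% (23.2 to 25.1%) a BirA replicate 1 peak, although the last list is the longest. The pooled bio-zfp281 list, called by the authors on both replicates joined, met 66.0% of them. Read from the other side, BirA replicate 2 met 14.6% of bio-zfp281 replicate 1 peaks and 24.8% of bio-zfp281 replicate 2 peaks. BirA replicate 1 met 20.4% and 21.03%.

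List lengths differ, so the 5000 peaks with most tags in each library were also compared, a choice made after seeing the data. Bio-zfp281 replicates then shared 60.1% and 61.3% of their peaks with each other. BirA replicate 2 shared 32.0% and 29.7% with bio-zfp281 replicates 1 and 2, but 13.7% with BirA replicate 1. BirA replicate 1 shared 14.4%, 11.8% and 13.3% with bio-zfp281 replicate 1, bio-zfp281 replicate 2 and BirA replicate 2. The tagged libraries thus shared most with each other at equal length, and BirA replicate 2 lay nearer to them than to its own partner.

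**Figure D1:**
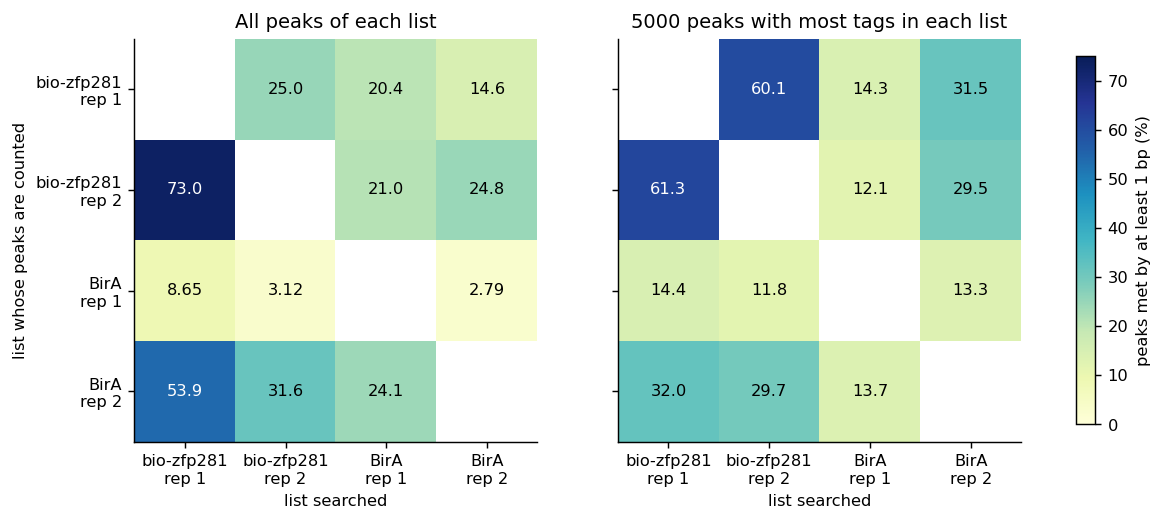
Share of the peaks of each list (rows) that overlap a peak of another list (columns) by at least 1 bp, in percent, for all peaks (left) and for the 5000 peaks with most tags in each list (right). In the right panel the bio-zfp281 pair shares 60.1% and 61.3%, BirA replicate 2 shares 32.0% and 29.7% with bio-zfp281, and the BirA pair shares 13.3% and 13.7%.

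Summits agreed more closely within bio-zfp281, and between bio-zfp281 and BirA replicate 2, than with BirA replicate 1. The median distance between summits was 52.0 bp for overlapping peaks of the bio-zfp281 replicates, and 70.2% of these 7380 pairs lay within 100 bp. Against BirA replicate 2 the medians were 64.0 and 62 bp for bio-zfp281 replicates 1 and 2. Against BirA replicate 1 they were 143 and 145 bp, and between the BirA replicates 112 bp. In the 4290 overlapping pairs of bio-zfp281 replicate 1 and BirA replicate 2, the bio-zfp281 peaks had a median length of 676 bp and the BirA peaks 511 bp.

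The stronger a bio-zfp281 peak was, the more often BirA replicate 2 had a peak there, and the same held for the other bio-zfp281 replicate. Among bio-zfp281 replicate 1 peaks of 5 tags, 4.78% of 8011 were met by BirA replicate 2. The share was 12.6% at 8 to 10 tags, 40.9% at 21 to 50 tags and 79.7% (76.3 to 82.8%) of the 621 peaks with more than 50. In bio-zfp281 replicate 2 it went from 11.2% of 3144 peaks at 5 tags to 76.7% at 21 to 50 and 97.6% (93.1 to 99.5%) of the 124 peaks above 50. Requiring summits within 200 bp left 67.2% and 86.3% of these strongest peaks. The other bio-zfp281 replicate met 5.6% of bio-zfp281 replicate 1 peaks at 5 tags, 83.0% at 21 to 50 and 100% above 50. For bio-zfp281 replicate 2 peaks these shares were 49.5%, 98.9% and 100%. The rise is thus not particular to BirA replicate 2.

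BirA replicate 1 did not follow that order. Its share in bio-zfp281 replicate 1 was 15.1% at 5 tags, 29.4% at 21 to 50 and 20.1% above 50. In bio-zfp281 replicate 2 it was 18.5% at 5 tags, 25.01% at 8 to 10 and 5.65% above 50. Of the peaks above 50 tags, 94 of 621 in bio-zfp281 replicate 1 and 3 of 124 in bio-zfp281 replicate 2 met neither BirA library. Stronger bio-zfp281 peaks were also longer, with median lengths of 466 bp at 5 tags and 1112 bp above 50 in replicate 1 and of 449 and 975 bp in replicate 2; the part of length in these shares was not tested.

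**Figure D2:**
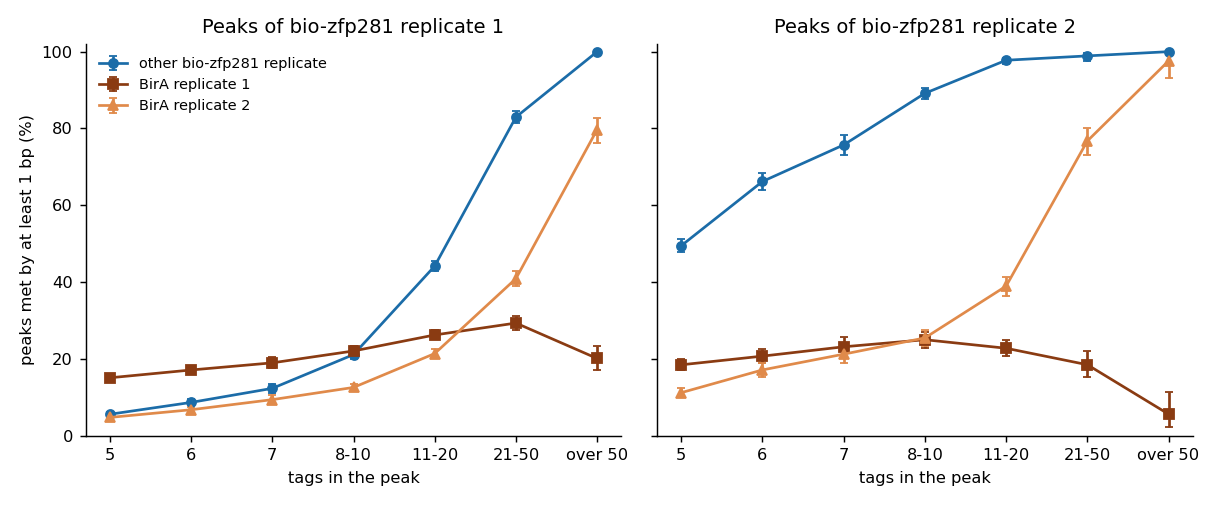
Share of bio-zfp281 peaks (percent, vertical axis) that overlap a peak of the other bio-zfp281 replicate, BirA replicate 1 or BirA replicate 2, by the number of tags in the peak (horizontal axis), with exact 95% binomial intervals. The BirA replicate 2 line climbs from 4.78% to 79.7% in the left panel and from 11.2% to 97.6% in the right one. The line of the other bio-zfp281 replicate climbs from 5.6% to 100% and from 49.5% to 100%. The BirA replicate 1 line stays between 5.65% and 29.4%.

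Peaks of the 4 libraries were then joined into 93708 regions wherever they overlapped. Both bio-zfp281 libraries had a peak in 7050 regions, and in 3672 of these (52.1%, 95% interval 50.9 to 53.3%) neither BirA library had one. BirA replicate 2 had a peak in 2312 of the 7050 (32.8%) and BirA replicate 1 in 1776 (25.2%). All 4 libraries had one in 710 (10.1%). Both BirA libraries had a peak in only 1883 regions, of which 1373 (72.9%) held at least 1 bio-zfp281 library and 510 (27.1%) held none. These counts lean on single libraries: the 3672 became 6049 without bio-zfp281 replicate 1 and 20051 without bio-zfp281 replicate 2. The 510 became 3411 without BirA replicate 1, 59912 without BirA replicate 2 and 1124 without bio-zfp281 replicate 1. The largest class was BirA replicate 1 alone, with 59387 regions or 63.4% of the total. Across the authors' pooled lists, the rule counts a peak as met when any of the 3 BirA lists overlaps it, and 15330 of 68319 pooled bio-zfp281 peaks, or 22.4%, were met. BirA replicate 2 by itself met 7.55% of them and BirA replicate 1 by itself 14.7%.

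**Figure D3:**
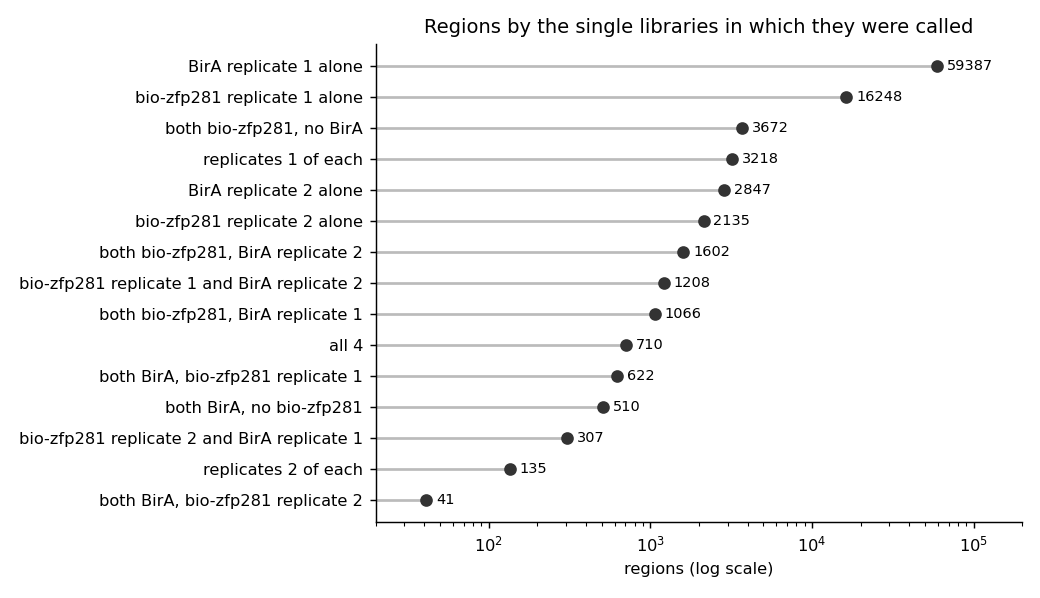
Number of joined regions (horizontal axis, log scale) in each of the 15 combinations of libraries in which a peak was called. BirA replicate 1 alone has 59387 regions, both bio-zfp281 libraries without BirA have 3672, all 4 libraries have 710 and both BirA libraries without bio-zfp281 have 510.

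Regions of both bio-zfp281 libraries without BirA held fewer tags than those that BirA replicate 2 also held. Tags of a region are given from here on per 1000000 filtered tags of the library (RPM). The median of these regions was 8.28 and 7.72 RPM in bio-zfp281 replicates 1 and 2, against 17.2 and 13.2 in the 1602 regions with BirA replicate 2 only. With BirA replicate 1 only, 1066 regions had 9.55 and 7.72. The length called in bio-zfp281 replicates 1 and 2 themselves had medians of 643 and 520 bp without BirA, 764 and 589 bp with BirA replicate 2 only and 734 and 548 bp with BirA replicate 1 only. The bio-zfp148 libraries come from cells with another tagged zinc finger protein of the same family, and both of them had a peak in 58.6% of the regions without BirA. They did so in 80.3% of those with BirA replicate 2 only, in 52.4% of those with BirA replicate 1 only and in 1.57% of the 510 regions of both BirA libraries without bio-zfp281. In regions of all 4 libraries the share was 67.9%. It was 11.6% and 7.17% in regions of bio-zfp281 replicate 1 or 2 alone, and 0.216% in those of BirA replicate 1 alone. A share over all joined regions, or over the 7050 of both bio-zfp281 libraries, was not computed. These shares thus cannot be called high or low, and the part of peak strength in them was not tested.

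A stricter set took regions called in both bio-zfp281 libraries and in the pooled bio-zfp281 list but in none of the 3 BirA lists, which left 3457. Their summits in the 2 libraries were a median of 51 bp apart. A BirA peak lay within 5 kb of 47.1% of them, and a peak of BirA replicate 2 within 5 kb of 16.1%. BirA replicate 1 had 66002 peaks and left only 2 of 2556 windows of 1 Mb without one. The share for other places of the genome was not computed, so closeness to BirA peaks cannot be read from these values. The regions highest in RPM are given by position in hg19, the authors' build. No gene or sequence is given for them, as no genome or annotation of that build was used here.

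Among these, chr19:52192829-52195213 held 90.4 and 69.5 RPM in bio-zfp281 replicates 1 and 2, from 142 and 63 tags, with summits 14 bp apart. At chr17:58238576-58239622 the values were 70.7 and 69.5, with summits 6 bp apart and authors' folds of 65.9 and 36.5. Both replicates gave much the same level there. The region chr12:111763220-111764772 held 65.0 and 66.2 RPM, but its summits were 302 bp apart. Values at chr2:200322103-200323434 were 68.8 and 48.5, and at chr19:10863588-10864615 they were 54.1 and 50.7. The other 5 of the 10 regions, chr17:48227838-48230156, chr9:86594430-86595850, chr1:36689192-36690760, chr14:95591536-95592580 and chr1:154982433-154983798, lay between 34.2 and 59.9 in either library. The lower value of the last, 34.2, was shared by 3 more regions that are not named. Each of the 10 was called in both bio-zfp148 libraries too.

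Regions of both BirA libraries and none of the 3 bio-zfp281 lists numbered 318. In BirA replicate 2 they were at the limit of calling, with a median of 4.63 RPM or 5 tags, the minimum. In BirA replicate 1 their median was 1.88 RPM or 30 tags, above the 12 tags needed and the median of 16 over its whole list. The highest was chr22:22453473-22455994 with 9.84 and 11.1 RPM, which both bio-zfp148 libraries also called. At chr6:10313997-10316285 the values were 7.08 and 6.48, from 113 and 7 tags, and its summits were 679 bp apart. At the other 4, chr1:145029160-145031050, chr1:234986578-234988307, chr13:92328159-92332852 and chr22:21147648-21150466, BirA replicate 2 held 6 tags each. None of these 5 lower ones was called in a bio-zfp148 library.

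At the 710 regions called in all 4 libraries, bio-zfp281 libraries mostly had higher RPM. The medians were 14.7 and 9.92 RPM in the bio-zfp281 replicates, against 3.32 and 6.48 RPM in the BirA replicates. Both bio-zfp281 values lay above both BirA values in 433 regions (61.0%), and both lay below in 7 (0.986%). In the remaining 270 the groups overlapped. The median log2 ratio of the group means was 1.16, but BirA replicate 1 over BirA replicate 2 had a median log2 ratio of -1.17, and bio-zfp281 replicate 2 exceeded BirA replicate 2 by a median log2 of only 0.49.

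One of the scalings turned the median. Divided by the tags in all peaks of its library instead of all filtered tags, the median log2 ratio was -0.13, with 110 regions higher and 51 lower in bio-zfp281. Divided by total tags it was 0.87, with 337 and 22, and per kb of called peak it was 1.00, with 371 and 0. Calling limits also differ: at the highest of them, 5.51 RPM, 110 regions remained, of which 44 were higher in both bio-zfp281 libraries and 5 lower. Without BirA replicate 2, 1775 regions were called in the 3 others, 1661 higher and 20 lower in bio-zfp281. Without bio-zfp281 replicate 2 there were 1321, with 851 higher and 72 lower, and without bio-zfp281 replicate 1 there were 719, with 500 higher and 35 lower.

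**Figure D4:**
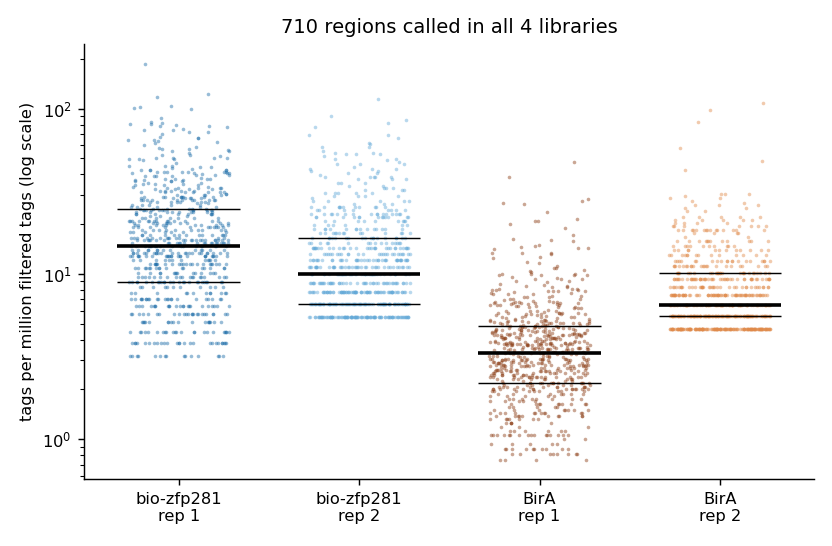
RPM, the tags per 1000000 filtered tags (log scale), of each of the 710 regions called in all 4 libraries, 1 point per region, with the median (thick line) and quartiles (thin lines) for each library. Medians are 14.7, 9.92, 3.32 and 6.48 from left to right, and the lowest row of points in each column is the calling limit of that library.

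Without BirA replicate 1 the comparison covers 2282 regions called in both bio-zfp281 libraries and BirA replicate 2. Medians there were 15.9 and 12.1 RPM in bio-zfp281 replicates 1 and 2 and 7.41 in BirA replicate 2. Both bio-zfp281 values were higher in 1618 regions (70.9%) and lower in 202 (8.85%), with a median log2 ratio of 0.92. Scaled to total tags, the median was 1.37 with 1887 higher and 80 lower, and per kb of called peak it was 0.51 with 1408 and 346. Scaled to tags in all peaks it turned to -0.56, with 442 regions higher and 1359 lower.

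The ratio grew with the strength of the region, and was read in the bio-zfp281 replicate that did not set the strength. Only called regions entered, so values below 5.51 RPM in bio-zfp281 replicate 2 and 4.63 in BirA replicate 2 were cut off. Tags of overlapping peaks also correlated more between the bio-zfp281 replicates (Spearman's rho 0.57) than with BirA replicate 2 (0.39 and 0.41). Sorting by 1 replicate thus raises the other, and how far this and the limits made the rise was not tested. Where bio-zfp281 replicate 1 held 8 to 10 tags, bio-zfp281 replicate 2 exceeded BirA replicate 2 by a median log2 of 0.25 over 194 regions. The median was the same at 5, 6 and 7 tags. Where replicate 1 held 21 to 50 tags, that median was 0.76 over 849 regions. It was 1.74 over the 500 regions above 50 tags, with 38.6 against 12.03 RPM. With replicate 2 setting the strength, replicate 1 exceeded BirA replicate 2 by 0.73 at 8 to 10 tags and by 2.25 over 124 regions above 50. Scaled to tags in all peaks, a choice made after seeing the data, the medians kept this order but began below 0: with replicate 1 setting the strength they were -0.75, -0.25 and 0.73 in these classes, and with replicate 2 setting it -1.27 and 0.25. Which peaks are higher in bio-zfp281 thus turns with the scaling in the weaker classes, while the largest ratio lay above 50 tags under both. Regions without a BirA peak have no BirA value and could not enter.

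Of the 6 named regions called in all 4 libraries, 4 had higher RPM in both bio-zfp281 libraries. The 6 were named for their high bio-zfp281 values, so their ratios do not stand for the 710 regions. The median log2 ratio over those 710 was 1.16. At chr6:32935124-32940448 bio-zfp281 replicates 1 and 2 held 187 and 114 RPM, and BirA replicates 1 and 2 held 3.57 and 25.9 (log2 ratio of means 3.35). Without BirA replicate 1 the log2 ratio was 2.53, and without BirA replicate 2 it was 5.39. The summits of both bio-zfp281 libraries and BirA replicate 2 lay within 42 bp there, and with BirA replicate 1 the farthest pair was 3096 bp apart.

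At chr7:5462945-5465225 the RPM values were 123, 81.6, 0.940 and 19.4 in the same order (log2 3.33, or 2.40 without BirA replicate 1 and 6.76 without BirA replicate 2). The same 3 libraries had summits within 8 bp of each other. At chr15:57615683-57617183 the values were 80.9, 77.2, 4.76 and 8.33 (log2 3.59, or 3.25 and 4.05), and those 3 summits lay within 63 bp. At chr12:54410622-54413437 they were 80.9, 69.5, 0.752 and 18.5 (log2 2.96, or 2.02 and 6.64). Here the summit of BirA replicate 2 was not that of bio-zfp281: the 3 summits spread over 1548 bp. The region chr6:74229676-74231522, with 118, 69.5, 9.78 and 24.1 RPM, tied with the last of these by the naming rule and fell out by chromosome order.

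At the remaining pair of regions the groups overlapped. At chr16:33962823-33964316 the values were 99.4, 90.4, 28.4 and 107, so BirA replicate 2 was the highest. Its authors' fold was 4.62, against 3.77 and 1.62 in bio-zfp281. At chr1:91852626-91853297 they were 104, 84.9, 47.4 and 98.1, with BirA replicate 2 between the bio-zfp281 libraries. All 4 summits lay within 15 and 11 bp at these places. The log2 ratios of means, 0.48 and 0.38, became -0.18 and -0.06 without BirA replicate 1.

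Some of the peaks with most tags in a library fell outside the rule for named regions, and were picked out after their values were seen. At chr22:22897113-22902369 bio-zfp281 replicates 1 and 2 held 1623 and 1261 tags (1034 and 1390 RPM) and BirA replicate 2 held 395 (366 RPM), with no peak in BirA replicate 1. At chr1:121483965-121485581 the counts were 625, 514 and 615, or 398, 567 and 569 RPM, and the authors' folds of 0.400, 0.370 and 0.730 were below 1. There BirA replicate 2 was as high as bio-zfp281 replicate 2. A peak was called in each of the 3 although its fold was below 1, and the reason was not tested. At chr21:9825304-9827764 the RPM values were 318, 283 and 320, with folds of 3.09, 1.48 and 3.37, and at the region of chr2:133025844-133031583 they were 249, 275 and 290. BirA replicate 2 was the highest of the 3 at both. At chr20:56100079-56101991 the counts were 386, 115 and 26, or 246, 127 and 24.1 RPM, with folds of 52.5, 20.4 and 6.46. At chrX:9309761-9311058 they were 426, 192 and 46, with folds of 22.4, 11.7 and 2.23.

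The genome-wide spread of peaks was also alike in bio-zfp281 and BirA replicate 2. In windows of 1 Mb with at least 10 peaks over the 4 libraries, of which there were 2556, the share of a library's peaks was compared. Spearman's rho across windows, a description with no test since windows are not replicates, was 0.87 between the bio-zfp281 replicates. Between bio-zfp281 replicates 1 and 2 and BirA replicate 2 it was 0.80 and 0.77. BirA replicate 1 gave 0.52 and 0.49 with bio-zfp281 and 0.49 with BirA replicate 2. The 100 fullest windows held 23.6% and 26.1% of bio-zfp281 peaks and 27.0% of BirA replicate 2 peaks, but 8.36% of BirA replicate 1 peaks.

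**Figure D5:**
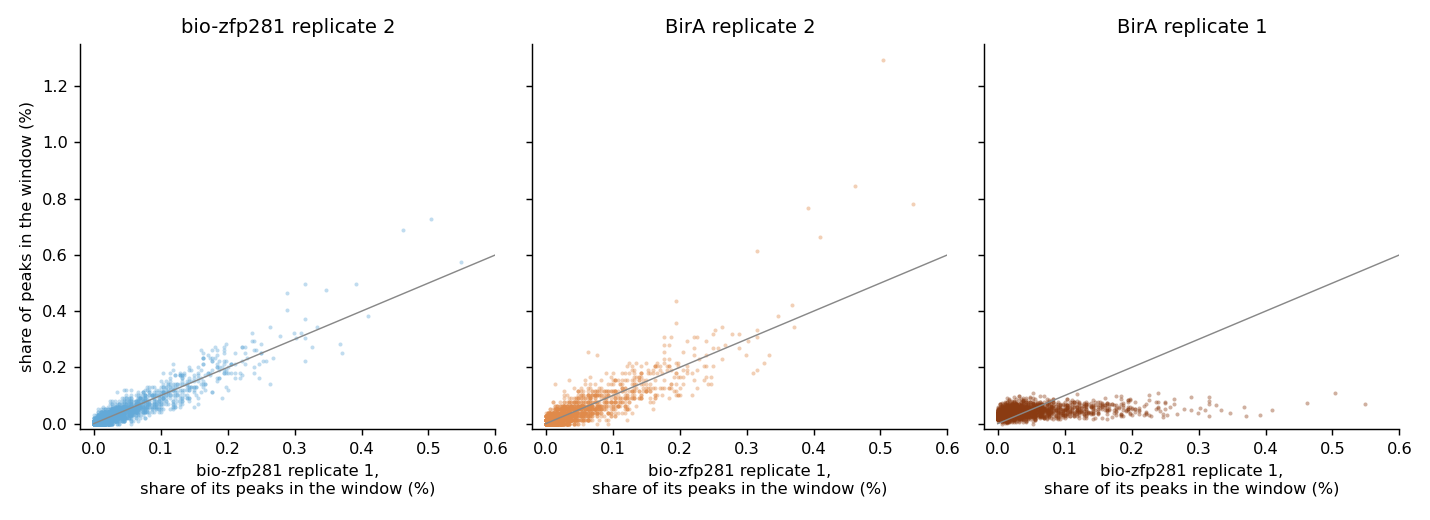
Share of each library's peaks per 1 Mb window (percent), with bio-zfp281 replicate 1 on the horizontal axis and bio-zfp281 replicate 2, BirA replicate 2 and BirA replicate 1 on the vertical axes from left to right; each point is 1 of 2556 windows and the grey line marks equal shares. Points follow the line in the left and middle panels (Spearman's rho 0.87 and 0.80) and lie nearly flat in the right one (0.52).

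Both bio-zfp281 shares were above both BirA shares in 315 windows (12.3%) and below both in 573 (22.4%). Without BirA replicate 1, they were above BirA replicate 2 in 803 (31.4%) and below it in 836 (32.7%). An excess of share in some windows forces a deficit in others, so these counts cannot show which group recovered more. With windows chosen anew on the 3 libraries left, the 315 became 510 without BirA replicate 1, 620 without BirA replicate 2, and 486 and 477 without bio-zfp281 replicates 1 and 2. Chromosome 19, which is rich in genes and GC, held 8.02% and 7.72% of bio-zfp281 peaks, 7.55% of BirA replicate 2 peaks and 1.89% of BirA replicate 1 peaks. Regions called in all 4 libraries fell on chromosome 1 in 18.3% of cases and on chromosome 6 in 10.6%. The 3457 regions clear of BirA did so in 13.2% and 5.47%, and the 318 regions of BirA only in 15.1% and 8.18%. These chromosomes were picked with the values known. On chromosome 3 the order was the other way, with 1.97% of regions of all 4 libraries against 4.08% of those clear of BirA.

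The windows with the largest excess in bio-zfp281 were chr19:3000001-4000000, chr7:100000001-101000000, chr12:54000001-55000000, chr19:18000001-19000000 and chr19:10000001-11000000. The first held 0.309% and 0.323% of bio-zfp281 peaks and 0.05% and 0.179% of BirA peaks, in the order of the replicates. In the window of chromosome 7 the groups overlapped, with 0.347% and 0.475% against 0.0379% and 0.384%. The window of chromosome 12 held 18 of the 3457 regions clear of BirA.

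Windows with the largest deficit were chr22:23000001-24000000, chr13:92000001-93000000, chr7:117000001-118000000, chr13:91000001-92000000 and chr1:207000001-208000000. In the first, BirA replicate 2 had 1.29% of its peaks, against 0.503% and 0.728% in bio-zfp281 and 0.108% in BirA replicate 1, so the groups overlapped. Among these 5, the groups were apart in the windows of chromosome 7 and chromosome 1, on 3 and 0 bio-zfp281 peaks at chr7:117000001-118000000 and on 15 and 6 at chr1:207000001-208000000.

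Ranked against BirA replicate 2 alone, a choice made after seeing the data, most of the named windows changed. The excess in bio-zfp281 was then largest at chr19:42000001-43000000, with 0.198% and 0.283% of bio-zfp281 peaks against 0.102%. It was followed by chr19:3000001-4000000, chr17:7000001-8000000, chr6:41000001-42000000 and chr5:176000001-177000000. The deficit was largest at chr22:23000001-24000000 and then at chr9:133000001-134000000, which held 0.392% and 0.495% against 0.767%. Next came chr22:22000001-23000000, chr22:20000001-21000000 and chr6:26000001-27000000. In each of these 10 windows both bio-zfp281 shares lay on the same side of BirA replicate 2. K562 cells are known for a fusion of BCR on chromosome 22 with ABL1 on chromosome 9, present in extra copies; copy number was not measured here, and its part in these windows was not tested.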

How the data were processed

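ChIP-seq peak lists from 4 libraries and the 2 pooled lists were used. The submitters' processing notes name Bowtie 1.0.0, MACS 1.4 and build hg19. The file headers give MACS 1.4.0rc2, a p cutoff of 1.00e-05 and the group's own input as control. Each list gives, as deposited, a tag count per peak with no normalisation. It also gives the authors' fold enrichment as a ratio, their p as a score (10 times its negative log10, called the p scale), and the false discovery rate in percent. At most 1 tag per position was kept, or 2 in BirA replicate 1 and the pooled lists, per the file headers, which limits the count a short peak can reach. Tags of peaks in a region were summed and divided by the filtered tags of the header, times 1000000 (RPM).

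Lists hold no value where nothing was called, so no count model was fitted. Overlap meant at least 1 bp. Shares have exact (Clopper-Pearson) 95% intervals, which cover counting error only. Named were the 10 regions of bio-zfp281 without BirA, the 6 of all 4 libraries and the 6 of BirA only. They had the highest values in the lower library of a group, which was bio-zfp281 for regions of all 4 libraries. Also named were the 5 windows at either end of the difference in mean share. Ties were broken by chromosome and position. Comparisons, lists and rules were chosen with earlier results of these data known. The joining of peaks was tested on simulated data. Alternatives were other overlap rules, filters, scalings and window sizes, leaving out single libraries, and a replicate block. Python 3.11.15, numpy 2.4.6, pandas 2.3.3, scipy 1.17.1 and matplotlib 3.10.9 were used.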

Additional observations from a re-analysis of the deposited data

How the results depend on the processing

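Of 76 alternatives to the 7 counts and shares, 24 stayed within range (1.5 times a count, or the interval of a share) and 52 moved; the cause was not tested. In the order share of pooled bio-zfp281 peaks met by BirA (22.4%), regions of bio-zfp281 without BirA (3672), of BirA without bio-zfp281 (510) and of all 4 libraries (710), of which higher (433) and lower (7) in bio-zfp281, the values that moved were these. A fold of at least 10 gave 7.51%, 485, 78, 1, 1 and 0. The 5000 peaks with most tags, chosen after seeing the data, gave 43.3%, 1589, 279, 217, 157 and 1. A p scale of at least 100 gave 13.7%, 184 (BirA without bio-zfp281), 330, 182 and 4. Summits within 200 bp gave 15.2% and 407 regions of all 4 libraries. The share was 19.9% at an overlap of at least 50% and 23.6% with the bio-zfp281 lists alone held to a false discovery rate of at most 5%. Lower regions numbered 4 without chromosomes 9, 22, M and Y, 22 scaled to total tags and 0 per kb. Scaled to tags in all peaks, 110 were higher and 51 lower. Windows with a higher share in bio-zfp281 numbered 315 at 1 Mb, 558 at 500 kb and 96 at 5 Mb.

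Leaving out each replicate in turn changed what the share counts. BirA replicate 2 alone met 7.55% of pooled bio-zfp281 peaks, and BirA replicate 1 alone 14.75%. The share was 41.8% without bio-zfp281 replicate 1 and 33.6% without bio-zfp281 replicate 2. The pooled bio-zfp281 list holds both replicates, so this latter pair does not count that list and cannot be compared with the main share. Regions of bio-zfp281 without BirA went from 3672 to between 4760 and 20051 (most without bio-zfp281 replicate 2). Those of BirA without bio-zfp281 numbered 552 to 59912 (most without BirA replicate 2), and those of all remaining libraries 719 to 2282. Of the latter, 500 to 1661 were higher and 20 to 202 lower, and 477 to 620 windows were higher. With a replicate block (each replicate against the replicate of the same number) 493 regions were higher, 18 lower and 422 windows higher. Replicate differences of the groups correlated at 0.014 over the 710 regions, so the numbers were not shown to pair the libraries. Most peaks rest on few tags, with medians of 6 to 7 outside BirA replicate 1, and the effect of depth on calling was not tested.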
